A study of Citrus sinensis with 6 samples.

Results

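The genes described here are those that the annotation of the deposited table places on the KEGG map of carbon fixation in photosynthetic organisms and on neither the photosynthesis map nor the antenna protein map. This rule uses annotation alone, and it chose 72 of the 29875 genes listed. The samples were leaves of sweet orange (*Citrus sinensis*) tissue-cultured seedlings, with 3 libraries from seedlings given 2% NaCl for 14 days (NaCl) and 3 from seedlings kept without NaCl for 14 days (control). Each replicate stood for several seedlings according to the study's methods. Neither group carries a transgene or a mutation. The labels conflict in places, with each other and with the study's methods. The control titles name sterile water, whereas the methods name standard medium with no salt added. The sample titles and the treatment field name NaCl, whereas the treatment protocol shared by all 6 libraries names boron and a longer treatment, and the titles call the control tissue leaf blades but the NaCl tissue leaf, so a difference in the leaf part taken cannot be told apart from NaCl. Levels are in FPKM, which is reads per gene scaled to the gene's length and to the library's depth. Recovered depths were 17307079 to 19520980 reads in NaCl libraries and 14325408 to 17558452 reads in control libraries.

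The Calvin cycle takes place in the chloroplast stroma. Rubisco joins CO2 to ribulose bisphosphate, the product is reduced to triose phosphate with ATP and NADPH from the light reactions, and most of the triose phosphate is turned back into ribulose bisphosphate by aldolases, bisphosphatases, isomerases, epimerases and transketolase. The KEGG map also holds the enzymes that make and break down malate, oxaloacetate and aspartate. In C4 plants they concentrate CO2 around Rubisco. Citrus is a C3 plant, in which the same enzymes mainly supply organic acids and amino acids and balance pH and reducing power. Several reactions of the map also belong to glycolysis, so a gene on it may encode a cytosolic enzyme.

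The annotation names the enzyme of only part of these genes. Of the 72 genes, 33 carried a gene ontology function term for 1 of 14 enzymes of the map, and 39 did not (35 of these had no function term at all and 4 had other terms). No member carried the function term of Rubisco, and none carried that of transketolase, phosphoribulokinase or pyruvate, phosphate dikinase. A missing term does not show a missing enzyme, and the 39 members without an enzyme term may include genes of these enzymes. The enzyme terms covered the reduction steps of the Calvin cycle with 3 genes, its regeneration steps with 10 genes and the dicarboxylate reactions with 20 genes. A chloroplast or plastid term was given to 42 members, and 24 members were also on the glycolysis map. Gene names do not accompany the identifiers in the deposited table, so genes are given here by their enzyme term and identifier.

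Transcript levels were uneven among the 72 genes. The most abundant member, Cs_ont_6g003980, had 2285, 1223 and 2201 FPKM in NaCl libraries, against 2423, 900 and 1679 FPKM in control libraries. It is on the maps of carbon fixation and of glyoxylate and dicarboxylate metabolism, has no function term and was singled out after its values were seen. The next, Cs_ont_8g020190, had 1191, 729 and 1329 FPKM in NaCl libraries, against 1118, 417 and 801 FPKM in control libraries. It shares the maps of glycolysis, the pentose phosphate pathway and fructose metabolism, also has no function term, and was likewise chosen after its values were seen. In both groups replicate 2 was the lowest library for both genes, and the groups overlapped. Averaged over the 6 libraries, the first of these genes held 25.1% of the FPKM of all 72, the top 2 held 38.1% and the top 10 held 66.6%.

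Below them, the carbon fixation genes spread widely. In all, 19 members averaged over 100 FPKM, 29 averaged 10 to 100 FPKM and 9 tested members averaged less than 10 FPKM. The remaining 15 members were too low to test, since a gene had to reach 0.5 FPKM in at least 3 libraries. Of these, 5 were at 0 in every library, and the highest value of any of them was 1.02 FPKM. The untested group held all 9 members whose identifier begins with Un, none of which exceeded 6 reads in any library.

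Among the 57 tested members, none passed the test between NaCl and control leaves. The test was limma on log2(FPKM + 1) over all 17285 genes that met the minimum, with Benjamini-Hochberg adjustment over them, and the call needed both an adjusted p no higher than 0.05 and a change of 1 or more, in either direction, on the log2 scale. Members called were 0 higher and 0 lower, where 2.73% of all tested genes were called. At the adjusted p alone the counts were again 0 and 0, where 3.23% of all tested genes passed, and limma with voom weights on the recovered reads also passed 0 members. The lowest adjusted p of a member was 0.0643. At an unadjusted p of at most 0.05, 14 members (24.6%) were higher in NaCl, beside 19.1% of all tested genes, and 5 members (8.77%) were lower, beside 11.2% of all tested genes. Under upper-quartile scaling these counts were 9 higher and 6 lower, and the share of all tested genes was not taken there. All 3 NaCl libraries lay above all 3 control libraries for 11 members (23.6% of all tested genes did so) and below them for 5 members (12.4% of all tested genes). The other 41 members overlapped between groups. These shares lie near those of all genes. One of the members counted as higher, Cs_ont_7g006440, met the minimum only through its NaCl libraries, and without it 13 were higher at that unadjusted p and 10 had all NaCl libraries above.

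The direction of the estimates was mostly positive. The log2 fold change was above 0 in 43 of 57 members (75.4%) and in 64.7% of all tested genes. Its median was 0.31 over members and 0.18 over all tested genes, and 36 of the 57 members lay above that all-gene median. Fold changes on this scale understate the change of genes with low FPKM. In bulk leaf RNA, fewer cells of a type and less RNA per cell cannot be told apart. The precision was limited, as the median standard error was 0.30 for members and 0.22 for all tested genes. Given its own spread, a member needed an absolute log2 fold change of 1.5 (median over members, from 0.65 to 2.88) to pass the adjusted p. This is the size of the estimate, and the power to detect a true difference was not tested.

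**Figure D1:**
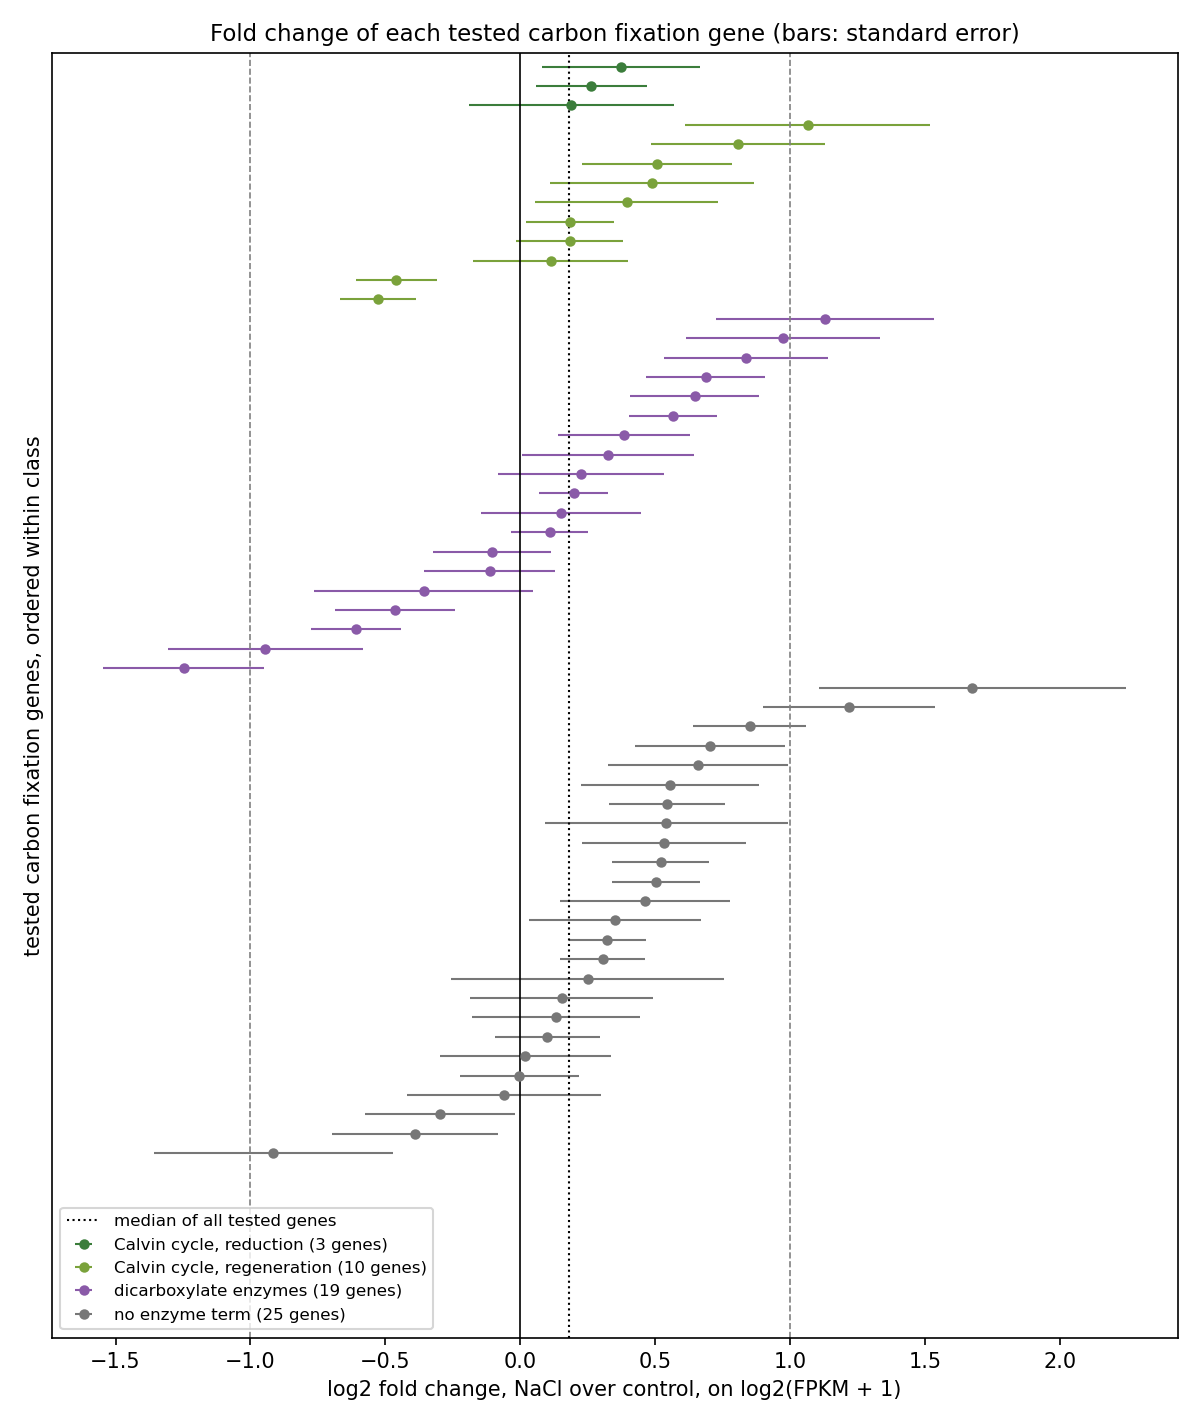
Log2 fold change of NaCl over control (x axis, on log2(FPKM + 1)) for the 57 tested carbon fixation genes, ordered by value within 4 classes. Points are limma estimates, bars are standard errors, dashed lines mark -1 and 1 and the dotted line marks the median of all tested genes (0.18). 4 members lie at 1 or above and 1 lies at -1 or below, and in each class most estimates are above 0.

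The reduction steps turn phosphoglycerate into triose phosphate. All 3 genes assigned to these steps are also on the glycolysis map, and the annotation does not settle which pathway each gene serves. Phosphoglycerate kinase Cs_ont_9g028060, which uses ATP for the first of these steps, had 173, 201 and 151 FPKM in NaCl libraries, against 108, 208 and 106 FPKM in control libraries. Control replicate 2 lay above every NaCl library, and control replicates 1 and 3 lay below every NaCl library. Glyceraldehyde-3-phosphate dehydrogenase completes the reduction. Its more abundant gene, Cs_ont_5g044290, carries terms for several cell compartments and had 434, 336 and 392 FPKM in NaCl libraries, against 236, 609 and 267 FPKM in control libraries. Again control replicate 2 stood above all the other libraries. The second gene, Cs_ont_9g028230, with a chloroplast term only, had 83.5, 92.6 and 72.9 FPKM in NaCl libraries, against 52.5, 83.4 and 73.9 FPKM in control libraries. The 3 reduction genes had log2 fold changes of 0.37, 0.19 and 0.26 in that order, with limma adjusted p of at least 0.405, and the groups overlapped in each.

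The regeneration steps were covered by 10 tested genes, of which 8 had positive estimates (median 0.29). At an unadjusted p of 0.05, 1 was higher in NaCl (10%, beside 19.1% of all tested genes) and 2 were lower (20%, beside 11.2%). In the chloroplast, both bisphosphatases carry out irreversible steps of the cycle that light activates. Sedoheptulose-bisphosphatase acts in the Calvin cycle and has no counterpart in glycolysis. Its gene Cs_ont_7g000910 had 67.7, 53.7 and 90.8 FPKM in NaCl libraries, against 59.9, 26.6 and 37.3 FPKM in control libraries. Only control replicate 1 reached into the NaCl range, and the log2 fold change was 0.81 (standard error 0.32, limma adjusted p = 0.153), and 0.54 without control replicate 2. This gene also carries the fructose-1,6-bisphosphatase term and was counted once, as sedoheptulose-bisphosphatase. Fructose-1,6-bisphosphatase Cs_ont_6g015890 had 29.3, 20.03 and 37.2 FPKM in NaCl libraries, against 32.2, 11.8 and 19.8 FPKM in control libraries. Its groups overlapped (log2 fold change 0.49, limma adjusted p = 0.401). The gene carries both chloroplast and cytosol terms and is also on the glycolysis map, so the annotation does not settle which pathway it serves. In both genes replicate 2 was the lowest library of each group.

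The genes with the lowest p among the regeneration enzymes had lower values in NaCl. Ribose-5-phosphate isomerase and ribulose-phosphate 3-epimerase both make ribulose 5-phosphate, the precursor of the CO2 acceptor, and both enzymes also serve the pentose phosphate pathway. Ribose-5-phosphate isomerase Cs_ont_2g012460 had 64.3, 66.2 and 76.1 FPKM in NaCl libraries, against 105, 92.1 and 102 FPKM in control libraries. The groups did not overlap and the spread within each was small, at 68.9 ± 6.32 FPKM in NaCl and 99.6 ± 6.72 FPKM in control (SD, n = 3 each). The log2 fold change was -0.53 (standard error 0.14, limma adjusted p = 0.0771). The epimerase gene with a cytosol term, Cs_ont_2g023880, had 30.9, 31.2 and 23.7 FPKM in NaCl libraries, against 37.5, 40.6 and 40.2 FPKM in control libraries. These groups were also separate (log2 fold change -0.46, standard error 0.15, limma adjusted p = 0.108). The epimerase gene with a chloroplast term, Cs_ont_5g039790, had 127, 107 and 124 FPKM in NaCl libraries, against 164, 74.6 and 109 FPKM in control libraries. Here the controls enclosed the NaCl values (log2 fold change 0.11, an estimate that turned to -0.012 under upper-quartile scaling). The difference between the epimerase genes was not tested.

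Aldolase and triose-phosphate isomerase act in the Calvin cycle and in glycolysis. Aldolase Cs_ont_2g012130 had 139, 161 and 136 FPKM in NaCl libraries, against 76.1, 156 and 88.3 FPKM in control libraries, and control replicate 2 was the one control within the NaCl range. Aldolase Cs_ont_4g021230 had lower levels, at 12.1, 11.4 and 18.0 FPKM in NaCl libraries and 14.8, 5.82 and 11.7 FPKM in control libraries, and here control replicate 2 was the lowest. The less abundant isomerase gene, Cs_ont_3g025990, had 10.3, 6.79 and 9.86 FPKM in NaCl libraries, against 2.29, 8.88 and 2.21 FPKM in control libraries, a log2 fold change of 1.07 with a standard error of 0.45 (limma adjusted p = 0.169). Its control replicate 2 was 3.95 times the mean of the other controls. The more abundant isomerase genes Cs_ont_8g002550 and Cs_ont_8g018970 had log2 fold changes of 0.18 each, with means of 107 and 92.0 FPKM in NaCl and 95.9 and 80.3 FPKM in control.

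**Figure D2:**
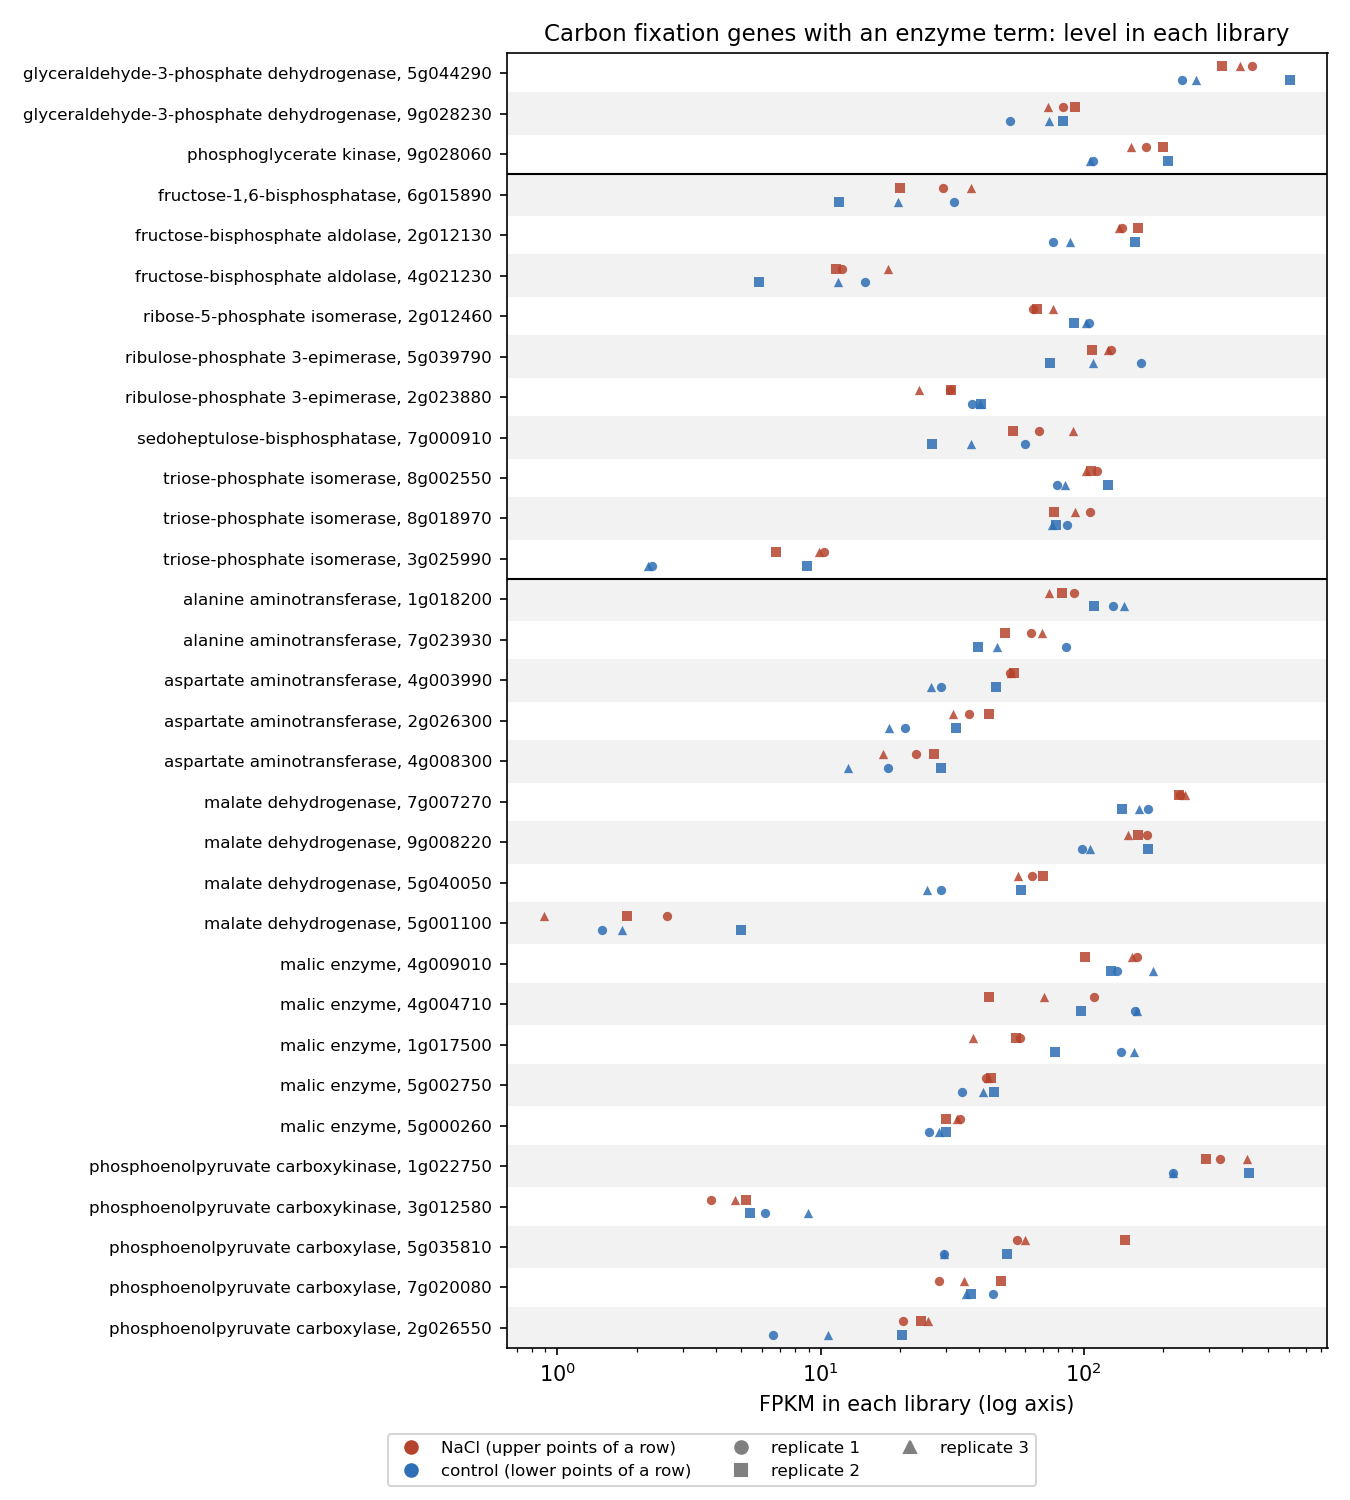
FPKM (x axis, log scale) in each library for the 32 tested carbon fixation genes with an enzyme term, with horizontal lines between reduction, regeneration and dicarboxylate enzymes. In each row the NaCl libraries are the upper points and the control libraries the lower points, and the marker gives the replicate. Control replicate 2 (lower square) often lies apart from control replicates 1 and 3, as in triose-phosphate isomerase 3g025990 (8.88 FPKM, against 2.29 and 2.21 FPKM in those controls).

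The dicarboxylate enzymes had estimates from -1.25 to 1.13. Of 19 tested genes, 12 had positive estimates (63.2%, beside 64.7% of all tested genes), and the median was 0.20. At an unadjusted p of 0.05, 6 were higher (31.6%, beside 19.1% of all tested genes) and 3 were lower (15.8%, beside 11.2%). Phosphoenolpyruvate carboxylase fixes bicarbonate into oxaloacetate. Its gene Cs_ont_5g035810 had 56.0, 143 and 59.9 FPKM in NaCl libraries, against 29.3, 51 and 29.3 FPKM in control libraries. All NaCl values lay above all control values and replicate 2 was the highest of each group (log2 fold change 1.13, standard error 0.40, limma adjusted p = 0.124). Without NaCl replicate 2 the log2 fold change was 0.70. A further carboxylase gene, Cs_ont_2g026550, had 20.6, 24.0 and 25.6 FPKM in NaCl libraries, against 6.58, 20.4 and 10.7 FPKM in control libraries. The groups were separate by a narrow gap, since control replicate 2 came close to NaCl replicate 1 (log2 fold change 0.97, standard error 0.36, limma adjusted p = 0.133). The third, Cs_ont_7g020080, averaged 37.3 ± 10.4 FPKM in NaCl and 39.4 ± 5.05 FPKM in control (SD, n = 3 each) with overlapping libraries. Each of the 3 also carries a phosphoenolpyruvate carboxykinase term, and they were counted as carboxylases.

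Malic enzyme, which makes pyruvate and CO2 from malate, had the member with the lowest p of all. Cs_ont_1g017500, with a chloroplast term, had 57.2, 55.4 and 37.8 FPKM in NaCl libraries, against 138, 77.8 and 155 FPKM in control libraries. The mean ratio of NaCl to control was 0.406, and even the lowest control, replicate 2, lay above every NaCl library. The log2 fold change was -1.25 (standard error 0.30, limma adjusted p = 0.0643). The malic enzyme gene Cs_ont_4g004710 had 109, 43.7 and 70.4 FPKM in NaCl libraries, against 157, 98.0 and 160 FPKM in control libraries. Its groups overlapped through NaCl replicate 1 and control replicate 2 (log2 fold change -0.94, standard error 0.36, limma adjusted p = 0.139, and -0.61 without NaCl replicate 2). The most abundant malic enzyme gene, Cs_ont_4g009010, had 159, 101 and 152 FPKM in NaCl libraries, against 133, 127 and 184 FPKM in control libraries. Its groups overlapped (log2 fold change -0.11, limma adjusted p = 0.768, and 0.092 without NaCl replicate 2). The other 2 malic enzyme genes had log2 fold changes of 0.11 and 0.20, so 3 of 5 estimates were below 0. All 5 also carry a malate dehydrogenase term, and they were counted as malic enzymes.

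Malate dehydrogenase interconverts malate and oxaloacetate, and 3 of its 4 genes had positive estimates. The most abundant, Cs_ont_7g007270, with chloroplast and mitochondrion terms, had 233, 230 and 242 FPKM in NaCl libraries, against 175, 140 and 162 FPKM in control libraries. The groups were separate, with an SD of 6.36 FPKM among the NaCl libraries and 18.0 FPKM among the controls (log2 fold change 0.57, standard error 0.16, limma adjusted p = 0.0868). Cs_ont_5g040050 had 63.3, 69.9 and 56.4 FPKM in NaCl libraries, against 28.7, 57.6 and 25.4 FPKM in control libraries (log2 fold change 0.84, standard error 0.31, limma adjusted p = 0.129). Cs_ont_9g008220 had 174, 160 and 147 FPKM in NaCl libraries, against 98.6, 176 and 106 FPKM in control libraries (log2 fold change 0.38). In each of these last genes control replicate 2 was the control that reached the NaCl range. The low gene Cs_ont_5g001100 had 2.62, 1.84 and 0.889 FPKM in NaCl libraries, against 1.47, 4.98 and 1.76 FPKM in control libraries.

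Aminotransferases link these organic acids to amino acids. Aspartate aminotransferase makes aspartate from oxaloacetate, and all 3 tested genes had positive estimates. Cs_ont_4g003990 had 52.5, 54.5 and 53.0 FPKM in NaCl libraries, against 28.7, 46.2 and 26.3 FPKM in control libraries, with separate groups (log2 fold change 0.69, standard error 0.22, limma adjusted p = 0.104). Cs_ont_2g026300, with a mitochondrion term, had 36.5, 43.6 and 31.8 FPKM in NaCl libraries, against 21.0, 32.8 and 18.3 FPKM in control libraries (log2 fold change 0.65, limma adjusted p = 0.133). In both genes replicates 1 and 3 of the control were the low libraries. Alanine aminotransferase, which interconverts alanine and pyruvate, went the other way in its more abundant gene. Cs_ont_1g018200 had 92.2, 82.4 and 73.8 FPKM in NaCl libraries, against 129, 110 and 142 FPKM in control libraries. These groups were separate (log2 fold change -0.61, standard error 0.17, limma adjusted p = 0.0813). The other gene, Cs_ont_7g023930, had 62.9, 50.4 and 69.1 FPKM in NaCl libraries, against 85.4, 39.6 and 47.0 FPKM in control libraries, with overlap.

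Phosphoenolpyruvate carboxykinase runs from oxaloacetate towards sugar synthesis. Its main gene, Cs_ont_1g022750, had 329, 290 and 419 FPKM in NaCl libraries, against 218, 426 and 218 FPKM in control libraries. The highest and the lowest of the 6 values were both controls (log2 fold change 0.32, limma adjusted p = 0.506). The minor gene, Cs_ont_3g012580, had 3.84, 5.20 and 4.74 FPKM in NaCl libraries, against 6.16, 5.38 and 8.93 FPKM in control libraries. Here all NaCl values lay below all control values, though NaCl replicate 2 and control replicate 2 nearly met (log2 fold change -0.46, limma adjusted p = 0.204).

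The 39 members with no enzyme term are described here by the maps they share and, where given, their location terms. Besides the 12 that share only the glyoxylate and dicarboxylate map, the largest such class that lies off the glycolysis map was on the pentose phosphate map, with 6 genes listed and 5 tested. Apart from Cs_ont_7g006440, which met the minimum only through NaCl, all 4 had positive estimates (median 0.61) and an unadjusted p of at most 0.05 (19.1% of all tested genes were higher at that p), and in 3 of them all NaCl libraries lay above all control libraries (23.6% of all tested genes). This class was picked out after its values were seen, so the counts are a description. Its identifiers Cs_ont_7g006430 and Cs_ont_7g006440 have consecutive numbers. Cs_ont_7g006430 had 23.8, 24.3 and 23.3 FPKM in NaCl libraries, against 4.05, 20.1 and 3.37 FPKM in control libraries (log2 fold change 1.68, standard error 0.57, limma adjusted p = 0.114), and it too was singled out after its values were seen. The 3 NaCl libraries were nearly equal, whereas control replicate 2 was 5.43 times the mean of the other controls. Cs_ont_7g006440 had 0.837, 0.815 and 2.78 FPKM in NaCl libraries, from 4, 4 and 15 reads, against 0 in every control library. Taking 3 reads per control library as the floor that a count of 0 allows, its NaCl mean was at least 2.10-fold higher. That bound rests on NaCl replicate 3, and without it is 1.18-fold. No sequences were compared, so whether these neighbouring identifiers are similar copies is not known. How the counting treated reads that fit more than 1 gene is not stated in the sources used here. The other 3 tested genes of the class carry a plastid term and ranged from 2.44 to 148 FPKM in control means. The most abundant of them, given as a further exception to the naming rule, had 218, 206 and 206 FPKM in NaCl libraries. Its control libraries had 177, 142 and 124 FPKM, and the groups were separate (log2 fold change 0.52, limma adjusted p = 0.119). Named by its low p, Cs_ont_3g019070 had 76.4, 60.3 and 78.7 FPKM in NaCl libraries. Its control libraries had 56.7, 47.4 and 46.5 FPKM, also separate (log2 fold change 0.50, limma adjusted p = 0.106).

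Among the other members with no enzyme term, the lowest p belonged to a gene with a peroxisome term on the maps of the citrate cycle, pyruvate and glyoxylate metabolism. It had 65.3, 53.3 and 52.3 FPKM in NaCl libraries, against 27.2, 41.6 and 26.2 FPKM in control libraries. The groups were separate, at 57.0 ± 7.25 FPKM in NaCl and 31.7 ± 8.62 FPKM in control (SD, n = 3 each), with a log2 fold change of 0.85 (standard error 0.21, limma adjusted p = 0.0675). Of the 4 genes on these same maps, 3 had positive estimates.

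Members were also compared by shared map and by location term. Of 21 tested members on the glycolysis map, 0 had an unadjusted p of at most 0.05 in limma and 2 had separate groups, although 17 had positive estimates (median 0.32). Of 36 tested members off it, 14 were higher and 5 lower at that unadjusted p, and 14 (38.9%) had separate groups (median 0.28). Over all tested genes, 19.1% were higher, 11.2% lower and 36.1% separate. With a chloroplast or plastid term, 28 of 32 tested members had positive estimates (median 0.39), and without one 15 of 25 did (median 0.15). Neither difference between these classes was tested.

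The genes Cs_ont_2g026550, Cs_ont_2g026300, Cs_ont_9g008220, Cs_ont_4g021230 and Cs_ont_8g018970 fall outside the naming rule and were chosen after their values were seen. Control replicate 2 decided how many members passed. Without it, 12 members were higher and 3 lower at the adjusted p alone, where 16.5% of all tested genes were higher and 7.89% lower. These are 21.1% and 5.26% of the 57 members. With the fold threshold the counts were 5 higher and 1 lower of the 57 members, beside 916 higher and 884 lower of all 17285 tested genes. The lower ones were malic enzyme Cs_ont_1g017500 (log2 fold change -1.55), alanine aminotransferase Cs_ont_1g018200 (-0.71) and ribose-5-phosphate isomerase Cs_ont_2g012460 (-0.58). Among the higher ones were phosphoenolpyruvate carboxylase Cs_ont_2g026550 (1.37), triose-phosphate isomerase Cs_ont_3g025990 (1.60), phosphoglycerate kinase Cs_ont_9g028060 (0.69), aldolase Cs_ont_2g012130 (0.81), malate dehydrogenases Cs_ont_5g040050 (1.19) and Cs_ont_9g008220 (0.64) and the aspartate aminotransferases Cs_ont_4g003990 (0.93) and Cs_ont_2g026300 (0.89). The largest estimate among the higher ones was 2.40, in Cs_ont_7g006430, which has no enzyme term. Cs_ont_1g022850, also without an enzyme term, had 1.06. With any other single library left out, 0 members passed by limma. Nothing in the labels sets control replicate 2 apart, so the counts with all 6 libraries are the main ones.

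The place of replicate 2 within each group varied among the carbon fixation genes. In NaCl, replicate 2 was the lowest library in 31 of 57 tested members (54.4%, beside 45.7% of all tested genes) and the highest in 16 (28.1%, beside 31.9%). In control, replicate 2 was the lowest in 21 (36.8%, beside 25.9%) and the highest in 29 (50.9%, beside 55%). It was the lowest of both groups at once in 16 members (28.1%, beside 11.2% of all tested genes) and the highest of both in 14 (24.6%, beside 17.4%). The deviation of NaCl replicate 2 from NaCl replicates 1 and 3 went with that of control replicate 2 from control replicates 1 and 3, with Pearson's r = 0.44 and Spearman's rho = 0.47 across the 57 members, against 0.026 and -0.0040 across all 17285 tested genes. It was not the strongest such relation, since r across the members was 0.49 for NaCl replicate 3 with control replicate 1, -0.46 for NaCl replicate 3 with control replicate 2 and -0.46 for NaCl replicate 2 with control replicate 1. The photosystem genes had r = 0.39 for replicate 2 in both groups. Genes of a library share its preparation and depth and are not independent, so these correlations are descriptions. The labels do not say that libraries with the same number share seedlings or a day.

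**Figure D3:**
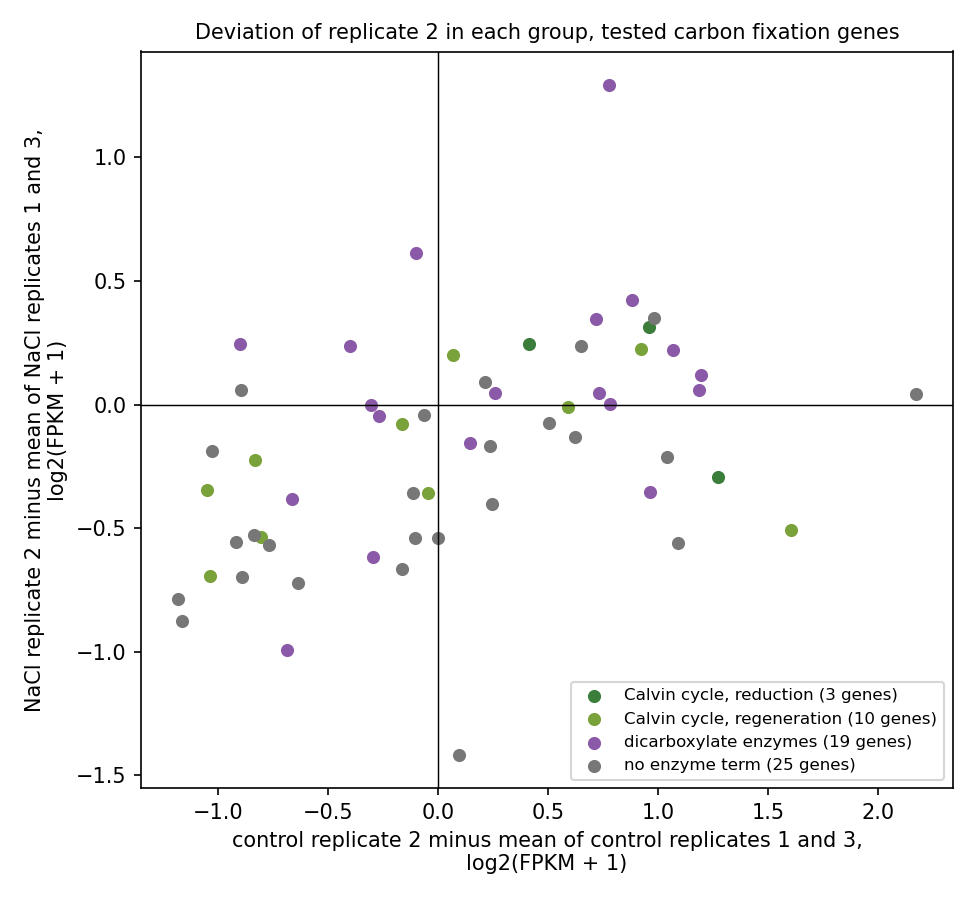
Difference of replicate 2 from the mean of replicates 1 and 3 on log2(FPKM + 1), in NaCl (y axis) and in control (x axis), for the 57 tested carbon fixation genes coloured by class. Genes in the lower left were low in replicate 2 of both groups and genes in the upper right high in both, and Pearson's r across the genes is 0.44.

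Summed over the 72 genes, the level was 8394, 6372 and 8328 FPKM in NaCl libraries, against 7583, 5854 and 6214 FPKM in control libraries. This was 1.20% to 1.61% of all FPKM in NaCl and 1.11% to 1.45% in control. The means were 7698 ± 1149 FPKM in NaCl and 6551 ± 912 FPKM in control (SD, n = 3 each), and the groups overlapped. Without the 2 most abundant genes the sum was 4918, 4420 and 4798 FPKM in NaCl libraries, against 4043, 4538 and 3734 FPKM in control libraries, where control replicate 2 was no longer the lowest control but the highest.

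The genes of photosystems, electron transport and antenna proteins, which supply the cycle with ATP and NADPH, had replicate 2 as the lowest library of each group in their sum. Their 67 genes summed to 10124, 7443 and 11285 FPKM in NaCl libraries, against 9627, 4889 and 6073 FPKM in control libraries. Of 54 tested genes, NaCl replicate 2 was the lowest NaCl library in 48 and control replicate 2 the lowest control in 30. In the test, 21 were higher and 0 lower at an unadjusted p of 0.05, 48 estimates were positive and the median was 0.53, and 0 passed the adjusted p by limma. Over all tested genes, 19.1% were higher and 11.2% lower at the unadjusted p. The 93 glycolysis genes outside carbon fixation summed to 3413, 3410 and 3235 FPKM in NaCl libraries, against 2757, 3316 and 2807 FPKM in control libraries. Of 82 tested, 17 were higher and 16 lower at the unadjusted p, 1 higher and 2 lower at the adjusted p, and the median was 0.23. The carbon fixation genes thus had a median estimate between these sets. Differences between the sets were not tested.

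**Figure D4:**
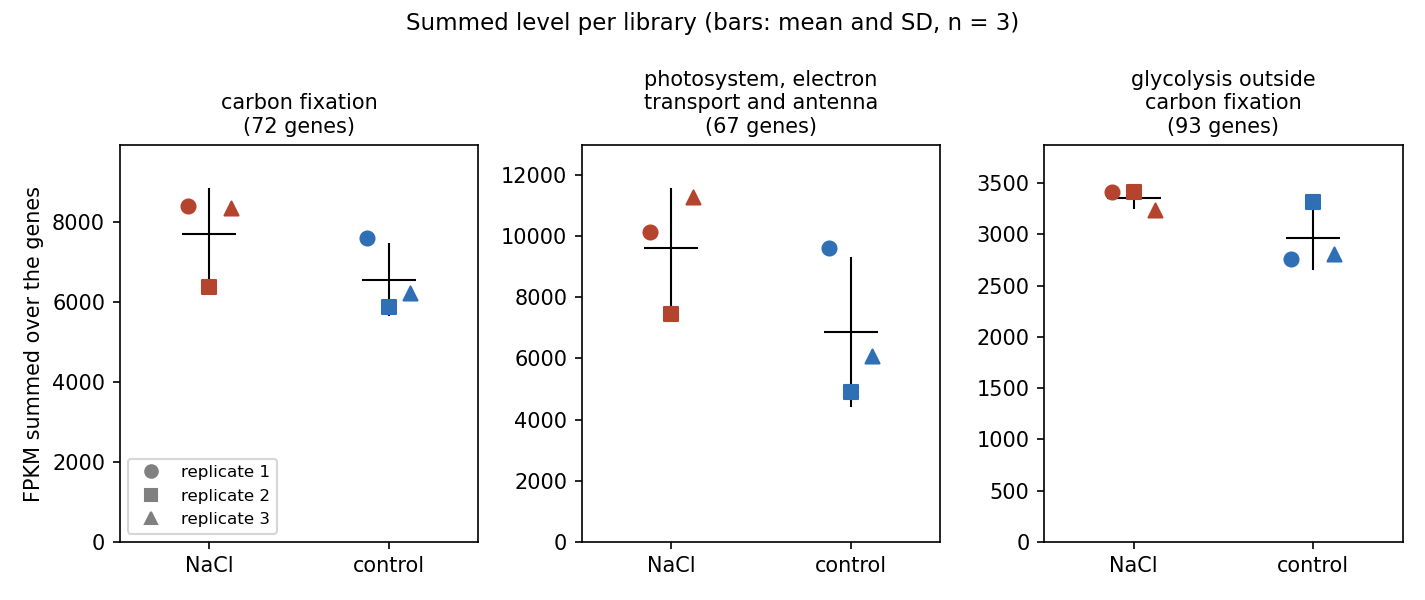
FPKM summed over the genes of each set (y axis, from 0) in the 3 NaCl and the 3 control libraries, with the mean and SD as black bars and the replicate as the marker. Replicate 2 is the lowest library of each group for carbon fixation (6372 FPKM in NaCl and 5854 FPKM in control) and for the photosystem set, and the highest control for glycolysis.

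Gene lists for leaf ageing and for other tissues also moved between libraries. Of the photosystem genes, 60 of 67 were above 0 in at least 1 library, whereas 0 of the 29875 genes carried the Rubisco function term. This does not check the tissue label, since most genes of the root and xylem lists given below were also above 0. Genes with the term chlorophyll catabolism (13 of 16 above 0) summed to 255, 336 and 282 FPKM in NaCl libraries, against 204, 210 and 151 FPKM in control libraries, and did not overlap. Genes with the term lignin biosynthesis (24 of 29 above 0) summed to 613, 849 and 661 FPKM in NaCl libraries, against 409, 529 and 495 FPKM in control libraries, also separate. Genes with the term leaf senescence (116 of 126 above 0) summed to 7849, 14868 and 9490 FPKM in NaCl libraries, against 8773, 11779 and 9217 FPKM in control libraries, and replicate 2 was the highest of each group. Genes with the term root development (349 of 392 above 0) summed to 9287, 8044 and 8347 FPKM in NaCl libraries, against 10802, 9515 and 11213 FPKM in control libraries, and all NaCl sums lay below all control sums. Sums for xylem development (33 of 36 above 0) were 137 to 157 FPKM in NaCl and 133 to 191 FPKM in control, and for secondary wall formation (33 of 39 above 0) 184 to 265 FPKM in NaCl and 182 to 236 FPKM in control. The part of these differences in the carbon fixation levels was not tested.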

How the data were processed

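The authors deposited FPKM per gene and library; their fold changes, p-values and calls, in the same table, were not used. According to the study's methods reads were trimmed with Trim Galore, aligned with HISAT2 and counted with featureCounts, whereas HISAT2 and HTSeq stand in the submitters' processing notes. No coordinates are printed because no genome of the identifiers' series was used. Groups came from the sample labels (3 NaCl, 3 control), and replicates are biological according to the study. FPKM is not a count, so a two-sided limma fit (version 3.58.1 under R 4.3.3, with a mean-variance trend, not robust) was made to log2(FPKM + 1) with no covariate, over genes that reached 0.5 FPKM in 3 or more libraries. An exact permutation test of 3 against 3 libraries cannot go below p = 0.1. Whole reads were recovered for 100% of 23073 genes above 0 (relative tolerance 1e-09). They gave the depths and the voom alternative, which was run in place of another count test. The fit was tested on simulated data.

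Enzymes were assigned by gene ontology function terms. Named members were, for each enzyme, the most abundant gene and the genes with the largest positive and negative log2 fold change, plus the 5 lowest p in each direction. The report states the 9 exceptions. The members and lists were chosen with earlier results of these data known. Alternatives were each library left out, a replicate block, no filter, a minimum of 1 FPKM, a pseudocount of 0.1, quantile normalization, upper-quartile scaling and voom. Python 3.11.15 with pandas 2.3.3 handled the tables. None of the identifiers matched the RefSeq gene table given (0 locus tags), and no sequences are printed.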

Additional observations from a re-analysis of the deposited data

How the results depend on the processing

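With 1 library left out, members called by limma were 0 to 5 higher and 0 to 1 lower, and 0 to 12 higher and 0 to 3 lower at the adjusted p alone. Every count above 0 came from leaving out control replicate 2, where 4219 of 17285 genes passed the adjusted p, beside 559 with all libraries and 0 to 120 without any other library. With a pseudocount of 0.1, 1 member was called higher and 1 was higher at the adjusted p alone (Cs_ont_7g006440, log2 fold change 3.76, 0 reads in every control). Under no filter, the stricter filter, quantile normalization, upper-quartile scaling and voom, 0 members passed, where 41, 614, 602, 428 and 457 genes passed in all. Replicate numbers were not treated as pairs, since the labels do not say that they mark shared seedlings. Same-numbered libraries deviated with correlations of -0.034, 0.026 and -0.071 across all tested genes. Across the 57 members these were 0.11, 0.44 and 0.25. Such correlations do not decide whether libraries are paired. With the replicate block 0 members and 7 of 17285 genes passed, and the members' median stayed at 0.31. That median ranged from 0.19 (no filter) to 0.38 (without control replicate 2). Quantile normalization and upper-quartile scaling each put the all-gene median at 0.077, beside 0.25 and 0.19 for members. Members at an unadjusted p of 0.05 ranged from 3 to 23 higher and from 3 to 7 lower. The 23 came without control replicate 2, where 4219 genes in all passed the adjusted p. The 3 higher came without control replicate 3, where 0 genes did. The share of all tested genes at the unadjusted p was not taken in these alternatives. These ranges are therefore no trait of the members. Of 37 named members, 30 kept 1 direction in every alternative. The other 7 had a range across 0 with 1 library left out: Cs_ont_4g009010 from -0.23 to 0.092, Cs_ont_5g001100 from -0.60 to 0.041, Cs_ont_5g039790 from -0.16 to 0.40, Cs_ont_5g044290 from -0.067 to 0.61, Cs_ont_6g003980 from -0.14 to 0.58, Cs_ont_7g020080 from -0.31 to 0.071 and Cs_ont_7g023930 from -0.071 to 0.47. Cs_ont_5g039790 also turned under upper-quartile scaling (-0.012). With 1 library left out, Cs_ont_6g015890 ranged from 0.14 to 0.83, Cs_ont_1g022750 from 0.16 to 0.65, Cs_ont_3g012580 from -0.60 to -0.28, Cs_ont_2g026550 from 0.62 to 1.37 and Cs_ont_4g021230 from 0.044 to 0.65. The cause was not tested. Untested members had at most 22 reads in any library, and each group had 3 libraries. Whether depth or the number of libraries limited the calls was not tested.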
